A study of Caenorhabditis elegans with 48 samples.

Results

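The small RNAs described here are miR-230-3p, miR-230-5p and miR-244-5p, 3 mature microRNA (miRNA) strands of the nematode Caenorhabditis elegans that were picked by name for their oscillating levels. They are 3 of the 437 strands listed in the count table, and all 3 are among the 246 whose counts averaged 10 or more and that entered the fits across strands. The values that led to the choice are their levels by hour in both genotypes, that is the hours of the peaks, the size of the swings and the delay in lin-28(0). Those values are therefore given as a description with standard errors (SE). Where the fits across all strands also called one of the 3, the call stands beside the share of all strands called and supports nothing here. The libraries came from whole larvae, collected each hour from 0 to 23 h of liquid culture, 24 from lin-28(0) and 24 from the wild type (WT). The lin-28(0) animals are strain HW2706, with the allele lin-28(xe192) on chromosome I, which removes the lin-28 locus by CRISPR, and the WT animals are strain HW1993. Both strains also carry the transgene xeSi312 on chromosome IV, a luciferase and GFP reporter behind the eft-3 promoter with unc-119(+), so that the WT is a reporter strain too. Neither received a treatment. Each genotype was a single culture with 1 library per hour, and every error given here measures the spread between hours and not between cultures.

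A miRNA precursor is cut by Dicer into a short duplex, and the strand that an Argonaute protein keeps, the guide, pairs with target mRNAs through the seed near its 5′ end, while the other strand, the passenger, is mostly degraded. In larvae of this worm many transcripts swing once per larval stage, in step with the molting cycle, and some miRNAs do so as well. LIN-28 is an RNA-binding protein of the heterochronic pathway, the gene network that sets the order of larval events, and it blocks the maturation of the let-7 miRNA. miR-244-5p is grouped by its seed with the miR-9 family of other animals.

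Levels are given as CPM, the counts of a strand per 1000000 counts over all miRNA strands of the library, so they are shares and not amounts per larva. In whole larvae, fewer cells that make a miRNA and less of it per cell cannot be told apart. Library totals were 2996370 (12 h) to 15317364 (2 h) counts in lin-28(0), with a median of 8308224, and 2315421 (15 h) to 20757531 (2 h) in WT, with a median of 6882069. The lowest count of a described strand in any library was 334, so counting error was small beside the steps between hours. The lin-28(0) libraries of 1 to 3 h stood apart, in that they were more like each other than like the libraries around them. Over the 246 strands, their correlations with each other were at least 0.994, and those with the lin-28(0) libraries of 0 and 4 to 7 h 0.969 to 0.985. In WT these were at least 0.989 and 0.977 to 0.997. The libraries of 0 and 4 to 7 h were themselves not uniform, with correlations as low as 0.973 in lin-28(0) and 0.970 in WT. The lin-28 transcript is an mRNA that these libraries do not count, so the deletion itself was not measured. The let-7 guide, let-7-5p, whose maturation LIN-28 blocks, was higher in lin-28(0) by an average of 6.99 on the log2 scale (SE 0.19, edgeR adjusted p = 2.3e-29).

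The genes lie on different chromosomes, outside other annotated genes. In the WBcel235 annotation, mir-230 is on the plus strand of chromosome X between F46G11.4 and F13D11.3, and mir-244 on the minus strand of chromosome I between T04D1.2 and chd-7. Another miRNA gene, mir-791, lies near mir-230 on the same strand. Its strands were at low levels, with medians of 68.6 CPM in lin-28(0) and 63.6 CPM in WT for miR-791-5p and 29.9 and 24.2 CPM for miR-791-3p. Neither passed the rhythm test described below in lin-28(0) (edgeR adjusted p = 0.52 and 0.76) or in WT (0.16 and 0.91). The test called 16.3% of all strands in lin-28(0) and 26.8% in WT, so a missing call was the usual outcome and nothing is read from it.

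The 3 strands differed widely in level and shared a large swing. miR-244-5p was the 13th most abundant strand by its mean over all libraries and took 2.35% of the counts in lin-28(0) and 2.62% in WT. miR-230-3p ranked 60th and miR-230-5p 71st. Their levels by hour are plotted for both genotypes.

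**Figure D1:**
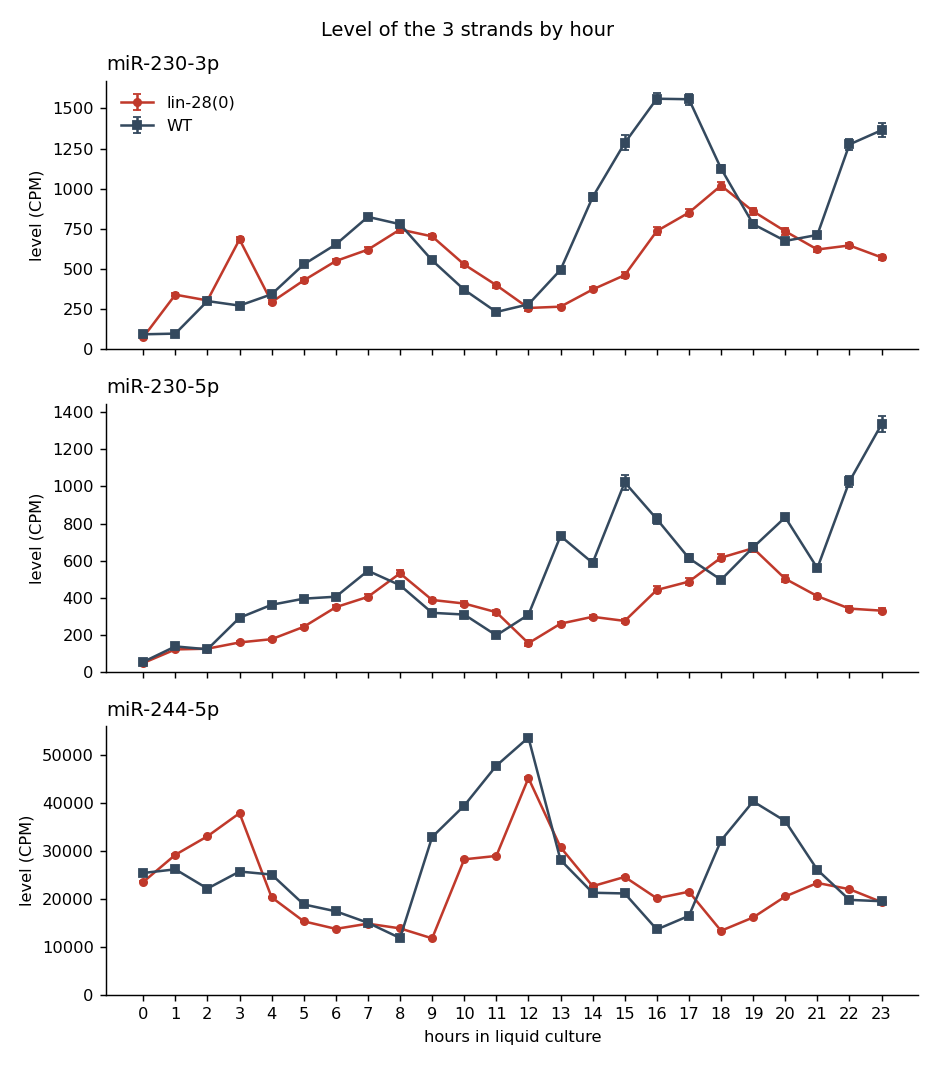
Levels of miR-230-3p, miR-230-5p and miR-244-5p (CPM, linear axis from 0) against hours in liquid culture, with 1 library per point, lin-28(0) as red circles and WT as dark squares. Bars are exact 95% Poisson intervals and cover counting error only. The miR-230 strands peak at 7 to 8 h and again at 15 to 19 h, where lin-28(0) is lower and later than WT, and miR-244-5p peaks at 12 h and at 19 to 21 h.

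miR-230-3p is the more abundant strand of its precursor in both genotypes, by the mean over hours. It ranged in lin-28(0) from 75.4 CPM (0 h) to 1019.55 CPM (18 h), with a median of 561 CPM, and in WT from 93.7 CPM (0 h) to 1560.4 CPM (16 h), with a median of 664 CPM. The ranges overlap over most of their span, and the 0 h library was the lowest in both genotypes. A peak is an hour whose level is the highest within 3 h on either side, and its rise is the ratio to the lowest level since the peak before, or since 2 h. In lin-28(0), miR-230-3p peaked at 746 CPM at 8 h, 2.54 times its low of 294 CPM at 4 h (95% interval 2.43 to 2.65), and at 1019.55 CPM at 18 h, 3.96 times its low of 258 CPM at 12 h (3.67 to 4.27). In WT, the peaks stood at 825 CPM at 7 h, 3.03 times the 272 CPM of 3 h (2.89 to 3.18), and at 1560.4 CPM at 16 h, 6.70 times the 233 CPM of 11 h (6.23 to 7.21). The second wave was thus taller than the first in both genotypes, and the deepest point between them came at 11 to 12 h. By the last hour the genotypes had parted, with 572 CPM in lin-28(0) and 1364 CPM in WT at 23 h.

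A further lin-28(0) peak of miR-230-3p, 684 CPM at 3 h, is a lone library between 305 CPM at 2 h and 294 CPM at 4 h. It falls among the libraries that stand apart and is no longer a peak in a running mean over 3 hours. At 3 h WT held 272 CPM. Whether the state of these libraries gave that value was not tested.

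miR-230-5p, the other strand of the same duplex, peaked near the same hours, and its mean over the hours was lower in both genotypes. It ranged in lin-28(0) from 48.9 CPM (0 h) to 667 CPM (19 h), with a median of 336 CPM, and in WT from 54.8 CPM (0 h) to 1335 CPM (23 h), with a median of 482 CPM. In lin-28(0) its peaks were 532 CPM at 8 h, 4.22 times the 126 CPM of 2 h (95% interval 4.00 to 4.46), and 667 CPM at 19 h, 4.29 times the 156 CPM of 12 h (3.90 to 4.73). In WT they were 546 CPM at 7 h, 4.45 times the 123 CPM of 2 h (4.24 to 4.67), and 1022 CPM at 15 h, 5.17 times the 198 CPM of 11 h (4.75 to 5.64). The WT curve was less even than that of miR-230-3p. Before the peak it held 733 CPM (13 h) and then 588 CPM (14 h), it reached 834 CPM once more (20 h), and it was highest in the last library, where a peak cannot be told from a continuing increase. The lin-28(0) curve had no such late increase, with 331 CPM at 23 h.

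miR-244-5p had the largest upward step from hour to hour in each genotype from 4 h on, before its 12 h peak, and the opposite timing. Its levels ran in lin-28(0) from 11744 CPM (9 h) to 45098 CPM (12 h), with a median of 21714 CPM, and in WT from 11811 CPM (8 h) to 53535.5 CPM (12 h), with a median of 25187 CPM. Here the lows of the genotypes were alike and the highs differed. In lin-28(0) the strand went up 2.40-fold within an hour, with 11744 CPM at 9 h and 28187 CPM at 10 h, on the way to its 12 h peak of 3.84 times the low (95% interval 3.81 to 3.87). In WT the step came an hour earlier and was 2.78-fold, with 11811 CPM at 8 h and 32827 CPM at 9 h, while the 12 h peak was 4.53 times the low (4.496 to 4.57). The way down was steep as well in WT, with 28045 CPM at 13 h, 0.52 times the level of the hour before.

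The second wave of miR-244-5p was lower in lin-28(0), where its rise of 1.27-fold at the steepest hour was smaller than that of either miR-230 strand. In lin-28(0) the peak was 23273 CPM at 21 h, 1.75 times the 13320 CPM of 18 h (95% interval 1.73 to 1.76). In WT it was 40238 CPM at 19 h, 2.96 times the 13592 CPM of 16 h (2.94 to 2.99). A lin-28(0) maximum of 37796 CPM at 3 h again falls among the libraries of 1 to 3 h, which held 29130 to 37796 CPM, against 22103 to 26107 CPM in the WT libraries of those hours. From 5 to 9 h all lin-28(0) levels lay between 11744 and 15292 CPM.

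Matched by their order, the extremes of 5 h and later were close between genotypes at the lows of miR-244-5p and apart at the second peak of all 3 strands. At the second peak, lin-28(0) had 0.65 times the WT level for miR-230-3p (95% counting interval 0.63 to 0.68), 0.65 times for miR-230-5p (0.62 to 0.69) and 0.58 times for miR-244-5p (0.57 to 0.58). At the first peak the ratios were 0.90 (0.87 to 0.94), 0.97 (0.93 to 1.02) and 0.84 (0.84 to 0.85). At the lows of miR-244-5p they were 0.99 (0.99 to 1.00) and 0.98 (0.97 to 0.99). At the low between the peaks they were 1.11 (1.00 to 1.22) for miR-230-3p and 0.79 (0.70 to 0.89) for miR-230-5p. These ratios each rest on 1 library per genotype, and their intervals hold no variation between cultures.

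The lin-28(0) library of 12 h, the shallowest of that genotype, sets several of these extremes. It holds the highest miR-244-5p and the lowest miR-230-5p of the lin-28(0) hours from 5 h on. Without it, the first lin-28(0) peak of miR-244-5p would be 30694 CPM at 13 h, 0.57 times the WT peak and 2.61 times the preceding low. The low of miR-230-5p would be 261 CPM at 13 h, 1.32 times that of WT, and its rise to the second peak 2.56-fold. For miR-230-3p the low would be 266 CPM at 13 h and the rise 3.84-fold. The second WT peak of miR-230-5p likewise rests on the 15 h library, the shallowest of WT. In a running mean over 3 hours that peak stood at 820 CPM at 16 h, against 595 CPM at 19 h in lin-28(0).

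In single libraries scaled by their totals, the second peak of lin-28(0) came later for all 3 strands, by more than the first. For miR-230-3p lin-28(0) was 1 h later at the first peak and 2 h later at the second, for miR-230-5p 1 and 4 h, and for miR-244-5p 0 and 2 h. The interval between the peaks was accordingly longer in lin-28(0), at 10 h against 9 h in WT for miR-230-3p, 11 h against 8 h for miR-230-5p and 9 h against 7 h for miR-244-5p. With TMM scaling, however, miR-230-3p peaked at 9 and 18 h in lin-28(0), so that its lag was 2 h at both peaks and its interval 9 h in both genotypes. Without the lin-28(0) library of 12 h, miR-244-5p lagged by 1 and 2 h, with an interval of 8 h in lin-28(0) and 7 h in WT. In the running mean over 3 hours, miR-230-5p peaked at 8 and 19 h in lin-28(0) and at 7 and 16 h in WT, so its second lag was shorter than in single libraries. Sampling each hour sets the resolution of these figures at 1 h.

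The rhythm was also described by a wave with a fixed period of 9 h on top of a straight trend, which edgeR fitted to the 38 libraries of 5 to 23 h. The amplitude, the height of the fitted wave above its middle on the log2 scale, was 0.61 ± 0.10 in lin-28(0) and 0.96 ± 0.11 in WT for miR-230-3p (± SE). It was 0.54 ± 0.11 in lin-28(0) and 0.59 ± 0.12 in WT for miR-230-5p. For miR-244-5p it was 0.43 ± 0.12 in lin-28(0) and 0.81 ± 0.12 in WT. At this fixed period all 3 estimates were lower in lin-28(0), and that of miR-230-5p by less than its SE. A separate least-squares fit to log2(CPM + 1), scaled by library totals, gave each curve its own best period. There the amplitude was 0.70 in lin-28(0) and 0.99 in WT for miR-230-3p and 0.54 and 0.80 for miR-244-5p. The 0.54 belongs to a period of 12 h, the edge of the range searched. For miR-230-5p it was higher in lin-28(0), at 0.63 against 0.60 in WT. Scaling and method changed together with the period, so this reversal cannot be put down to the period. The median amplitude of all 246 strands was 0.21 in lin-28(0) and 0.23 in WT. Ranked by amplitude, miR-230-3p was 28th in lin-28(0) and 25th in WT, miR-230-5p 34th and 49th, and miR-244-5p 54th and 33rd.

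At an adjusted p of 0.01 the miR-230 strands were called rhythmic in both genotypes and miR-244-5p in WT only. The fit called 16.3% of all strands in lin-28(0), 26.8% in WT and 14.6% in both. Since the strands were chosen for this pattern, nothing is read from the calls. That miR-244-5p was not called in lin-28(0) does not show that it lacked a rhythm there, and with a single library left out it was called in 24 of 38 fits. The call of miR-230-5p in lin-28(0) was kept in 34 of 38, and lost without the lin-28(0) library of 8, 13, 18 or 19 h. A difference of the rhythm between genotypes, which takes in amplitude and timing, was called for both miR-230 strands and not for miR-244-5p, beside 14.2% of all strands. Over 0 to 23 h edgeR called no such difference for any strand, with 53 at an unadjusted p under 0.05, while limma called 0 and DESeq2 7.

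**Figure D2:**
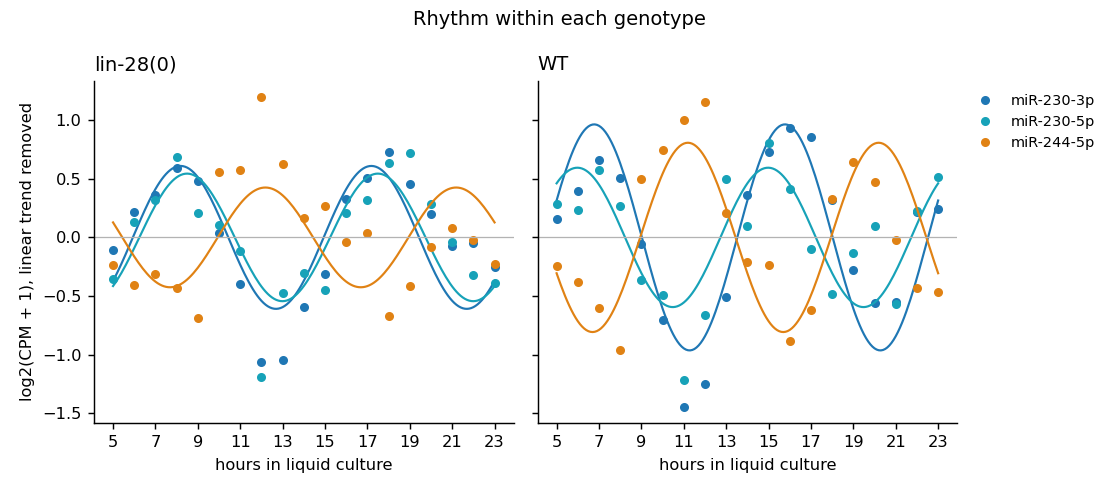
Levels as log2(CPM + 1) with the linear trend removed (points, 1 library each) and the fitted wave of a 9 h period (lines) against hours in liquid culture, for lin-28(0) on the left and WT on the right. miR-244-5p runs against the miR-230 strands in both genotypes. In lin-28(0) its wave is lower, with an amplitude of 0.43 against 0.81 in WT.

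The wave of miR-244-5p ran nearly opposite to that of miR-230. Within the 9 h cycle it peaked 4.00 ± 0.44 h after miR-230-3p in lin-28(0) and 4.42 ± 0.24 h after it in WT (± SE). The correlation of their detrended levels over 19 hours was -0.82 in lin-28(0) and -0.87 in WT, a description of curves that share libraries and totals. The strands of mir-230 were close in time, with miR-230-3p 0.30 ± 0.38 h before miR-230-5p in lin-28(0) and 0.80 ± 0.32 h after it in WT. Their detrended levels correlated at 0.90 in lin-28(0) and at 0.72 in WT.

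The fitted peaks were later in lin-28(0) for each strand. The delay was 1.41 ± 0.27 h for miR-230-3p, with peaks at 8.19 h in lin-28(0) and 6.77 h in WT, counted within the 9 h cycle. For miR-230-5p it was 2.51 ± 0.42 h, with peaks at 8.49 and 5.98 h. For miR-244-5p it was 0.99 ± 0.43 h, with peaks at 3.19 and 2.19 h. The other 34 strands called rhythmic in both genotypes had a median delay of 1.48 h (quartiles 1.28 and 1.85 h) and all of their estimates were above 0. They ran from 0.57 to 2.41 h, so that the estimate for miR-230-5p lay above all 34 and that for miR-244-5p below 32 of them. That of miR-230-5p exceeded the longest of them by less than its SE. A lower amplitude in lin-28(0) was likewise common, in 30 of the 34. The ratio of the amplitudes, lin-28(0) over WT, was 0.63 for miR-230-3p, 0.92 for miR-230-5p and 0.53 for miR-244-5p, beside a median of 0.82 (0.59 to 1.27) in those 34. The 34 had to be called in lin-28(0), which keeps low amplitudes there out of the set, and miR-244-5p was not called, so its place below their range is partly set by that selection.

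**Figure D3:**
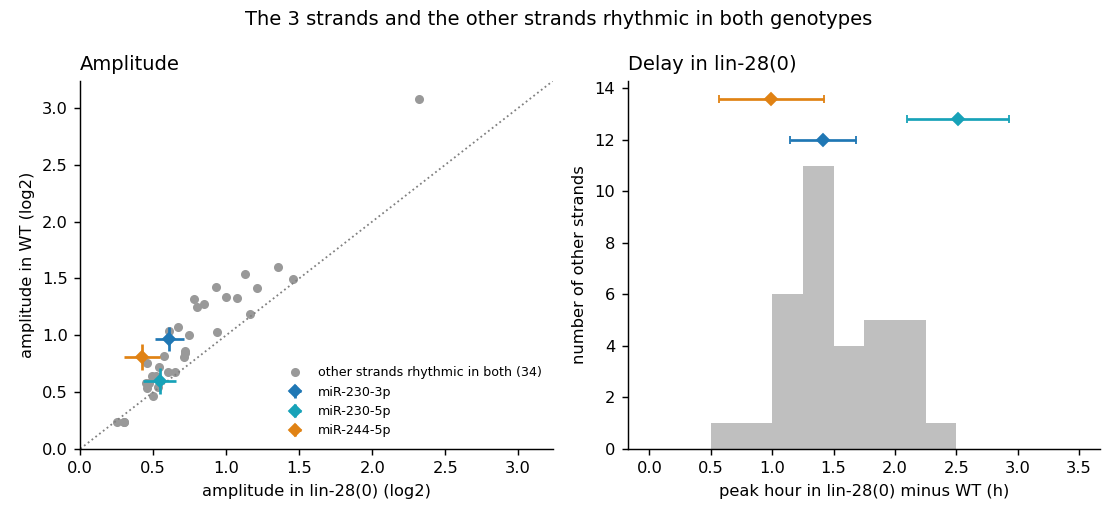
Left, amplitude in lin-28(0) against amplitude in WT (log2) for the 34 other strands rhythmic in both genotypes (grey) and the 3 described strands (diamonds with SE), with a dotted line of equal amplitude. Right, histogram of the delay of the lin-28(0) peak in hours for the 34 strands, with the delays of the 3 strands and their SE above it (their height has no scale), at 1.41, 2.51 and 0.99 h.

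A delay found without a fixed wave was close to the fitted one for miR-230-3p and miR-244-5p and longer for miR-230-5p. It reads the same curves and is no independent check. The lin-28(0) curve was moved in steps of 0.25 h to where it correlated best with that of WT. The best shift was 1.5 h for miR-230-3p, where the correlation was 0.94 against 0.51 without a shift. For miR-244-5p it was 1.25 h, with 0.78 against 0.46. For miR-230-5p it was 3.25 h, with 0.65 against -0.02, and 2.5 h when levels were first averaged over 3 hours. The other 34 strands, without averaging over hours, had a median of 1.25 h (0.5 to 2.25 h), so the 3.25 h of miR-230-5p lay above their range.

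The best period was longer in lin-28(0) than in WT for each strand. The period from 6 to 12 h that left the smallest residual was 10.5 h in lin-28(0) and 9.25 h in WT for miR-230-3p. It was 10.25 h in lin-28(0) and 8.75 h in WT for miR-230-5p. The other 34 strands had medians of 9.75 h in lin-28(0) and 8.25 h in WT, with the longer period in lin-28(0) in 31. For miR-244-5p the WT period was 8.5 h, and that of lin-28(0) lay at the edge of the range searched, at 12 h. At 9 h the wave took 37.96% of the detrended variance of miR-244-5p in lin-28(0) and 76.1% in WT, whereas for miR-230-3p it took 71.2% and 92.6%, and for miR-230-5p 66.0% and 65.3%. The fitted hours hold about 2 cycles, which limits how well a period can be set.

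Averaged over the 24 hours and compared at equal hours, all 3 strands were estimated lower in lin-28(0). In a fit with a spline of the hour for each genotype, the average log2 difference, lin-28(0) minus WT, was -0.60 (SE 0.12) for miR-230-5p, -0.25 (0.10) for miR-244-5p and -0.21 (0.13) for miR-230-3p. Only miR-230-5p was called, beside 22.8% of strands called in either direction and 6.5% called lower, and since the delay that chose the strands comes from the same contrast, nothing is read from it. With the sampling hour as a block, the difference of miR-230-5p was -0.58 and no longer past the threshold. With lin-28(0) hours moved 2 h earlier, toward the WT timing, miR-230-5p was not called and the sign of miR-230-3p turned. The average at equal hours thus depends on the delay. Leaving out the lin-28(0) libraries of 1 to 3 h gave -0.82 for miR-230-5p, -0.28 for miR-244-5p and -0.58 for miR-230-3p, which was then called. That fit kept the WT libraries of 1 to 3 h and still averaged over all 24 hours. Its lin-28(0) level at 1 to 3 h was thus bridged by the spline, so nothing is read from this shift or call. By hour, the level in lin-28(0) was below that in WT at 18 of 24 hours for miR-230-5p, 16 for miR-230-3p and 14 for miR-244-5p.

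**Figure D4:**
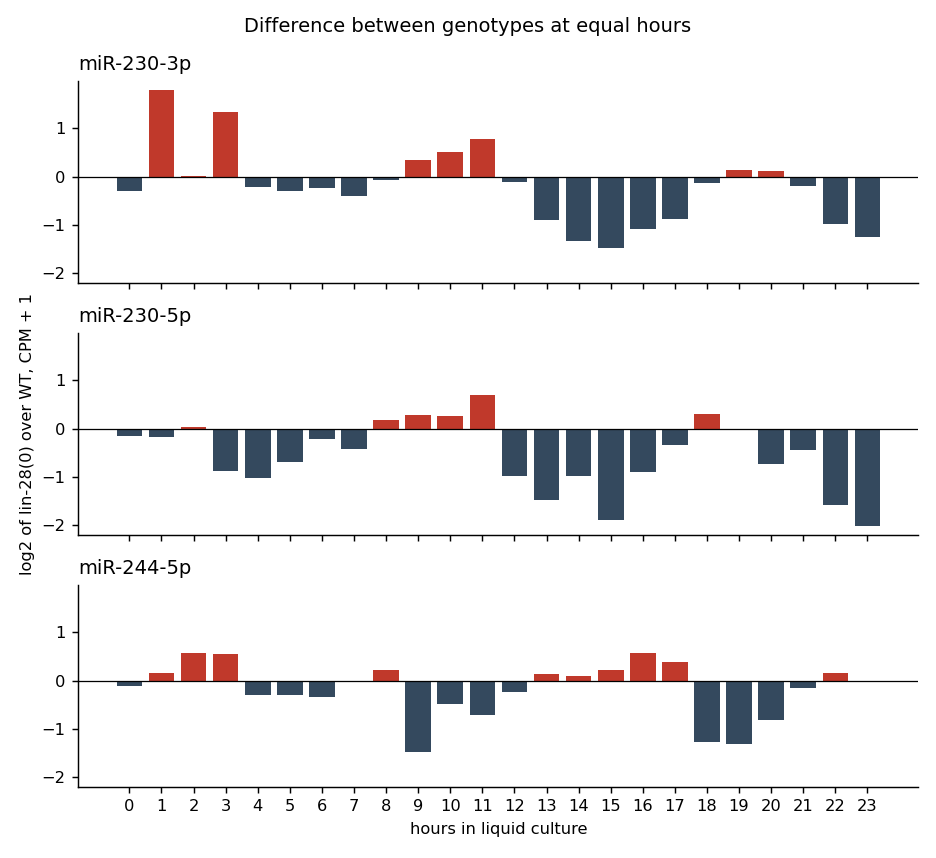
Log2 ratio of lin-28(0) over WT (CPM + 1) at equal hours, 1 bar per hour, with hours higher in lin-28(0) in red and lower in dark. The differences come in runs of hours. They reach -1.47 at 15 h for miR-230-3p, -2.01 at 23 h for miR-230-5p and -1.48 at 9 h for miR-244-5p.

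The difference between genotypes came in runs of hours that followed the waves. miR-230-3p was higher in lin-28(0) at 9 to 11 h, on the way down from the first peak, by up to 0.78 on the log2 scale at 11 h, and lower at 12 to 18 h, by up to -1.47 at 15 h. miR-230-5p ran from 0.70 at 11 h to -1.89 at 15 h in the same way. miR-244-5p was lowest against WT during the WT waves, with -1.48 at 9 h, the hour of the large WT step, and -1.32 at 19 h, the hour of the second WT peak. A comparison at equal hours therefore mixes the delay with the level.

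The fitted difference was farthest from 0 at 16 to 23 h. There it was -0.98 (SE 0.21) for miR-230-5p, -0.76 (0.22) for miR-230-3p and -0.46 (0.17) for miR-244-5p, and only miR-230-5p was called, beside 7.72% of all strands and 4.47% called lower. At 8 to 15 h the values were -0.47 (0.20), -0.20 (0.22) and -0.26 (0.17), with no call beside 2.85% of all strands. At 0 to 7 h they were -0.36 (0.20), 0.32 (0.22) and -0.03 (0.17), with no call beside 19.9%. In the libraries themselves, miR-230-5p averaged 475 ± 121 CPM in lin-28(0) and 795 ± 278 CPM in WT at 16 to 23 h (SD, n = 8 hours each). miR-230-3p averaged 755 ± 148 CPM in lin-28(0) and 1131 ± 368 CPM in WT. miR-244-5p averaged 19493 ± 3279 CPM in lin-28(0) and 25468 ± 9767 CPM in WT. The spread over these hours was smaller in lin-28(0) for each strand.

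The balance of the mir-230 strands varied with the hour. The ratio of miR-230-5p to miR-230-3p ran in lin-28(0) from 0.23 (3 h) to 0.98 (13 h), with a median of 0.60, and in WT from 0.39 (17 h) to 1.48 (13 h), with a median of 0.79. In both genotypes the highest ratio came at 13 h, 1 to 2 h after the low between the peaks. miR-230-5p was the more abundant strand at 0 of 24 hours in lin-28(0) and at 6 of 24 in WT, namely at 1, 3, 4, 12, 13 and 20 h. By abundance at a single hour, the strand of mir-230 that would be called the guide thus depended on the hour in WT. The study names guides by their mean over its plate time course, and its modelled guides include miR-230-5p. In the liquid cultures here the mean was higher for miR-230-3p in both genotypes. The lowest lin-28(0) ratios, 0.36 (1 h), 0.41 (2 h) and 0.23 (3 h), belong to the libraries that stand apart.

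**Figure D5:**
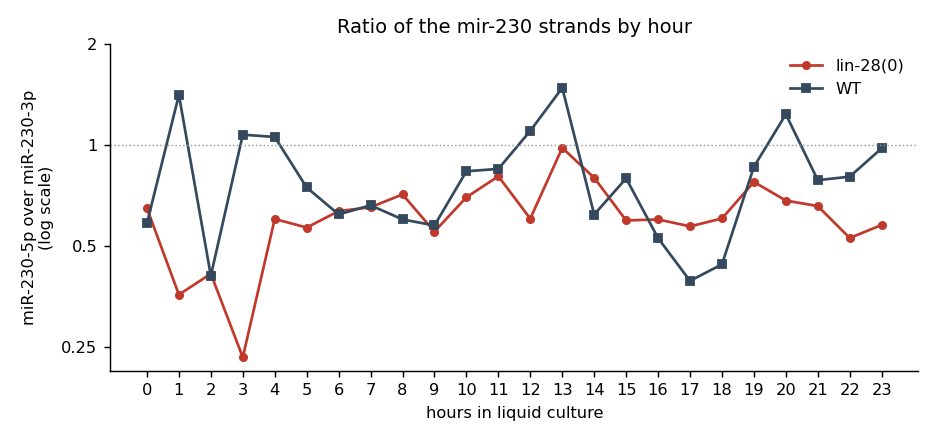
Ratio of miR-230-5p to miR-230-3p (CPM + 1, log axis) against hours in liquid culture, lin-28(0) as red circles and WT as dark squares, with a dotted line where the strands are equal. All lin-28(0) points lie below the line, and 6 of 24 WT points lie above it, the highest at 1.48 (13 h).

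The other strand of mir-244 was nearly absent. miR-244-3p gave 199 counts in all 48 libraries, with 0 counts in 2 lin-28(0) and 5 WT libraries, where 3 counts would be at most 1.30 CPM. Its highest level was 1.15 CPM in lin-28(0) and 1.74 CPM in WT. In WT it gave 12, 16 and 6 counts at 9, 10 and 11 h, the hours of the first miR-244-5p wave, and 1 to 2 counts in each library of 5 to 8 h and at 12 and 13 h. The level of 10 h was 1.65 CPM, and its 95% interval (0.94 to 2.67) lay above those of 6, 7 and 13 h. Their upper ends were 0.63, 0.83 and 0.86 CPM. The interval of 10 h overlapped those of 5, 8 and 12 h, the last being the hour of the miR-244-5p peak. In WT, miR-244-3p also gave 13, 17 and 6 counts at 1, 2 and 14 h. Whether it swung with the first wave is therefore not settled by these low counts. In lin-28(0) it gave 0 to 7 counts in each library of 5 to 23 h, and in WT at most 3 at 17 to 21 h, during the second wave, so that a swing was not detectable there. Of mir-244 the libraries thus held almost only the 5p strand, and of mir-230 both strands at comparable levels.

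The strands most like each of the 3 over time were found by the correlation of detrended log2 levels over the 38 libraries of 5 to 23 h, among 177 others with a mean of at least 10 CPM. The curve of miR-230-3p was most like those of miR-42-5p (0.83), miR-44-5p (0.82), miR-72-3p (0.81), miR-43-5p (0.77) and miR-71-5p (0.71). The 5p strands of mir-42, mir-43 and mir-44 are passengers of a gene cluster of the miR-35 family and its neighbours, known for roles in the embryo, and miR-71 is known for promoting long life span. For miR-230-5p they were miR-45-5p (0.81), miR-72-3p (0.76), miR-71-5p (0.73), miR-228-5p (0.71) and miR-44-5p (0.69). So miR-72-3p, miR-71-5p and miR-44-5p stand in both groups.

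For miR-244-5p the likeness was weaker, with miR-81-5p (0.70), miR-77-5p (0.69), miR-48-5p (0.69), miR-39-3p (0.69) and miR-36-3p (0.68). miR-48 belongs to the let-7 family and acts in the heterochronic pathway, and miR-36 and miR-39 belong to the miR-35 family. The strand most opposite to miR-244-5p was miR-71-5p, at -0.82. These correlations are over hours of the same libraries, which share their totals and the growth of the culture. Of the 34, 4 in lin-28(0) and 1 in WT peaked within 1 h of miR-244-5p, against 6 in lin-28(0) and 6 in WT within 1 h of miR-230-3p. The 34 had to be called in both genotypes, which miR-244-5p was not. Strands called in WT only are left out of them, among them miR-77-5p, whose WT peak at 2.72 h lay within 1 h of the 2.19 h of miR-244-5p. These counts therefore do not show that its timing was rare.

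A list of 21 other strands, picked as rhythmic from earlier results, gives a further measure of how common the pattern was. Of its 17 members tested with edgeR, 10 were rhythmic in lin-28(0), 13 in WT and 9 in both, and the rhythm of 10 differed between genotypes, beside 16.3%, 26.8%, 14.6% and 14.2% of all strands. The list was drawn up with such results known, so that its counts are no independent evidence. Amplitudes ran in lin-28(0) from 0.25 (miR-77-3p) to 2.56 (let-7-3p, the passenger of let-7) and in WT from 0.52 (miR-788-5p) to 3.08 (lin-4-3p, the passenger of lin-4). All 3 described strands lay within these ranges, near their lower ends. The median delay of the 9 strands rhythmic in both was 1.67 h (0.57 to 2.41 h). The average level of 2 list members was called higher in lin-28(0) and that of 1 lower, a share near the 22.8% of all strands called in either direction.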

How the data were processed

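The 3 strands and the list of 21 others were chosen with earlier results of these data known. By the study's own account, the authors removed adapters with QuasR, aligned them to ce10 with Bowtie (version not given in the sources used here) and deposited raw counts per miRBase strand. Per the labels, 3 sequencing reactions were run, with the TruSeq and CleanTag kits by the study's account, and which entered each library's counts is not stated. A second deposited table holds log2 values, which were recalculated from the counts within 0.0005 and not tested. Library totals over all strands gave CPM. Counts were tested with the quasi-likelihood test of edgeR 4.0.16 (R 4.3.3) after TMM scaling on all 437 strands, over the 246 with a mean count of at least 10, with Benjamini-Hochberg adjustment and a threshold of 0.01.

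The rhythm fit held cosine and sine terms of 9 h and a linear trend per genotype over 5 to 23 h. The genotype fit held a cubic spline of the hour with 6 components, its interaction with genotype, and all 48 libraries. The fits were tested on simulated data with independent libraries and the same 9 h period in both genotypes. Those data do not cover periods that differ between genotypes or serial samples of 1 culture, so nothing is read from them. Groups were compared at equal hours. Over the 246 strands, deviations from the genotype means of libraries of equal hours correlated at 0.32 to 0.91 in all 24 pairs, and the hour was also used as a block. Only 4 of 24 lin-28(0) libraries correlated best with their own WT hour, and 18 with an earlier one. The block thus mostly joined libraries that were not each other's best match. Counting intervals (95%, Poisson for a level and Clopper-Pearson for a ratio) and the floor of 3 counts cover counting error only, since PCR copies cannot be told from separate molecules. Named strands were the 3 described, miR-244-3p, the extremes of the list, and the 5 strands most alike, with mir-791 added after its place was seen. Mature sequences and shared seeds were not used here. Alternatives were DESeq2 1.42.0, limma 3.58.1, other scalings, periods, hours, filters and splines, shifted hours and each library left out.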

Additional observations from a re-analysis of the deposited data

How the results depend on the processing

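The period and the hours fitted changed the counts of rhythmic strands most. With a period of 8 h, 12 strands were rhythmic in lin-28(0) and 15 differed between genotypes, against 40 and 35 at 9 h, and the amplitude of miR-230-3p was 0.41 in lin-28(0) and 0.74 in WT. With 10 h, 6 differed. Over 0 to 23 h, 13 were rhythmic in lin-28(0) and 32 in WT, against 66 over 5 to 23 h, the amplitude of miR-230-3p in lin-28(0) was 0.33, and edgeR called 0 rhythm differences (53 at an unadjusted p under 0.05, while DESeq2 called 7 and limma 0). Averaging over 3 hours moved the grid delay of miR-230-5p to 2.5 h. The cause of these shifts was not tested.

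With each of the 38 libraries left out in turn, the rhythmic strands numbered 37 to 52 in lin-28(0) and 53 to 67 in WT, and 22 (without WT 17 h) to 37 differed. The amplitudes ran in lin-28(0) from 0.48 to 0.64 for miR-230-3p, 0.43 to 0.57 for miR-230-5p and 0.37 to 0.53 for miR-244-5p, each lowest without 12 h, and in WT from 0.92 to 1.04, 0.54 to 0.72 and 0.73 to 0.87. The delays ran from 1.25 to 1.63 h, 2.25 to 2.89 h and 0.83 to 1.33 h.

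The average difference was called for 56 strands. When the lin-28(0) libraries of 1 to 3 h were left out it was called for 35. There WT kept those hours, and the spline bridged them in lin-28(0). With lin-28(0) hours moved 2 h later, away from the WT timing, it was called for 91. With the sampling hour as replicate block it was called for 30. In that block fit miR-230-5p was at -0.58 (edgeR adjusted p = 0.0101), and the block changed no other call of the 3 strands. miR-230-3p was called at -0.58 without 1 to 3 h and at -0.53 with hours 2 h later, and its sign turned, at 0.027, with hours 2 h earlier, where miR-230-5p was at -0.30 and not called. No scaling, filter or other tool moved a call of the average difference of the 3 strands. Depth limits only miR-244-3p.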
